A study of Mus musculus with 19 samples.

Results

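The DNA methylation machinery of the mouse retina was examined here through 9 genes, the methyltransferases Dnmt1, Dnmt3a and Dnmt3b, the methyltransferase partner Uhrf1, the dioxygenases Tet1, Tet2 and Tet3, and the methyl-CpG binding proteins Mbd1 and Mbd2. They were taken by name, by matching the Ensembl gene identifiers of the count files to the GRCm38 annotation, and each of the 9 matched exactly 1 of the 47069 genes listed. The study compared 2 neuronal populations of the E16.5 retina that differ in the route of their axons, ipsilateral retinal ganglion cells (iRGCs), whose axons avoid the midline at the optic chiasm, and contralateral retinal ganglion cells (cRGCs), whose axons cross it. RNA-seq libraries of polyA RNA from 3 iRGC and 3 cRGC samples were used, and their depth, as counts on genes, ranged from 28193178 to 33638083.

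All embryos were C57/DBA F1, labelled WT, and each sample pooled males and females at E16.5. Every embryo carried a Cre-dependent Sun1-GFP cassette in the Rosa26 locus, which marks the nuclear envelope once Cre has removed a stop cassette. The iRGC samples were GFP-positive cells sorted from Slc6a4-Cre; Sun1-GFP retinas, where Cre follows the serotonin transporter gene. The cRGC samples were GFP-positive cells sorted from Pou4f2-Cre; Sun1-GFP retinas, where Cre was targeted into the locus of a transcription factor of most RGCs, after the ventrotemporal (VT) region had been cut away. Removal of the stop cassette is permanent, so GFP stays in a cell and its descendants after the driver gene has been switched off. Driver line, dissected region and population coincide in this design and cannot be told apart. The study also states that iRGCs are born later and were on average the younger cells at E16.5. Maturity therefore cannot be told apart from population either. The labels do not say whether the replicates came from separate litters, so p-values measure the spread between these samples.

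In mammals, DNA methylation is placed mainly on cytosines of CG dinucleotides. Dnmt3a and Dnmt3b methylate sites that carried no mark, whereas Dnmt1 copies the pattern to the new strand behind the replication fork, where Uhrf1 recognises hemimethylated DNA and brings Dnmt1 to it. The Tet enzymes oxidise 5-methylcytosine to 5-hydroxymethylcytosine and further, and base excision repair can then restore an unmodified cytosine. Mbd1 and Mbd2 bind methylated CG sites, Mbd2 as a subunit of the NuRD chromatin remodelling and deacetylase complex. Neurons leave the cell cycle as they are born, and Dnmt1 and Dnmt3a remain expressed in many postmitotic neurons.

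The labels were checked against marker genes before the methylation genes were read. Levels are given in CPM, counts scaled to a common library size with the TMM factors of edgeR. Zic2, the transcription factor that defines iRGCs, stood at 133, 173 and 157 CPM in iRGC replicates 1, 2 and 3 and at 56.9, 60.2 and 65.6 CPM in the cRGC replicates. All 3 iRGC libraries therefore lay above all cRGC libraries, and the log2 fold change was 1.34 ± 0.13 (adjusted p = 2.09e-04, edgeR; the SE follows the ± for fold changes throughout). The list of iRGC markers held 4 genes, of which Zic2 and Zic1 were higher in iRGCs and Slc6a4 and Ephb1 did not pass the test. Ephb1, the guidance receptor of iRGC axons, had 57.3, 57.5 and 109.6 CPM in iRGCs and 69.2, 85.1 and 115 CPM in cRGCs, with overlapping groups (log2 fold change -0.26 ± 0.28; adjusted p = 0.499, edgeR). Pou4f1, a factor of most cRGCs, stood at 107, 116 and 181 CPM in iRGCs and at 860.1, 671 and 431 CPM in cRGCs, so that it was lower in every iRGC library (log2 fold change -2.28 ± 0.28; adjusted p = 4.0e-04, edgeR). Slc6a4, whose gene drives Cre in the iRGC line, went against its label in iRGC replicate 1, at 2.06 CPM, against 33.3 and 116 CPM in iRGC replicates 2 and 3 and 48.0, 35.4 and 30.5 CPM in cRGCs. The groups overlapped for Slc6a4, which did not pass the test (log2 fold change 0.41 ± 0.93; adjusted p = 0.768, edgeR; -1.11 without iRGC replicate 3). Results were therefore also computed without the library labelled iRGC replicate 1, and these values are given for the 9 genes. Of the pathway genes named below with a call, Mbd3 and Mbd5 lost it without that library.

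Proliferation and progenitor genes also differed between the populations. The 23 genes of a list of S phase genes were higher in iRGCs without exception, with a median log2 fold change of 2.18, and their summed level was 3044, 2835 and 2926 CPM in iRGCs against 532, 911 and 709 CPM in cRGCs. Mcm6, a subunit of the replicative helicase, was the most abundant of them. The 20 genes of G2 and M phases were also higher in iRGCs, with a median log2 fold change of 2.49, a summed level of 5139, 4198 and 3921 CPM in iRGCs and 486, 1124 and 702 CPM in cRGCs, and Top2a as the most abundant gene. Of 14 retinal progenitor markers, 11 were higher and 1, Six3, lower in iRGCs. The progenitor list summed to 8621, 8259.9 and 7036 CPM in iRGCs against 2350.25, 3156 and 3042 CPM in cRGCs, with the cyclin gene Ccnd1 as its most abundant member. No marker of the list was at 0 in any library. Of 13 RGC markers, 12 were lower in iRGCs, and their summed level was 2495, 3488 and 5319 CPM in iRGCs against 13784, 12478 and 15430.3 CPM in cRGCs, with Nefm, a neurofilament gene, as the most abundant. The part of these lists in the differences of the methylation genes was not tested. In bulk samples, fewer cells of a type and less RNA per cell cannot be told apart.

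Of the 9 methylation genes, 4 were higher in iRGCs, none was lower and 5 did not pass the test. Those that rose were Uhrf1, which finds hemimethylated DNA, the maintenance methyltransferase Dnmt1, the de novo methyltransferase Dnmt3b and the methyl-CpG reader Mbd2. A gene counted as higher or lower at an adjusted p under 0.1 (edgeR's quasi-likelihood test, Benjamini-Hochberg over all 15941 genes tested), and by this rule 46.4% of all tested genes differed, 23.3% being higher and 23.1% lower in iRGCs. The 4 genes made up 44.4% of the 9, and the median log2 fold change over the 9 was 0.34, beside a median of -0.0031 over all tested genes. With the further requirement of an absolute log2 fold change above 1, which the study used for DEGs, Uhrf1 and Dnmt3b passed, 2 of 9 genes, beside 23.1% of all tested genes. Libraries of the populations did not overlap for 5 of the 9, namely these 4 and Tet3, beside 55.3% of all tested genes, so that count is near the background. Without iRGC replicate 1, 4 genes were higher and 0 lower.

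**Figure D1:**
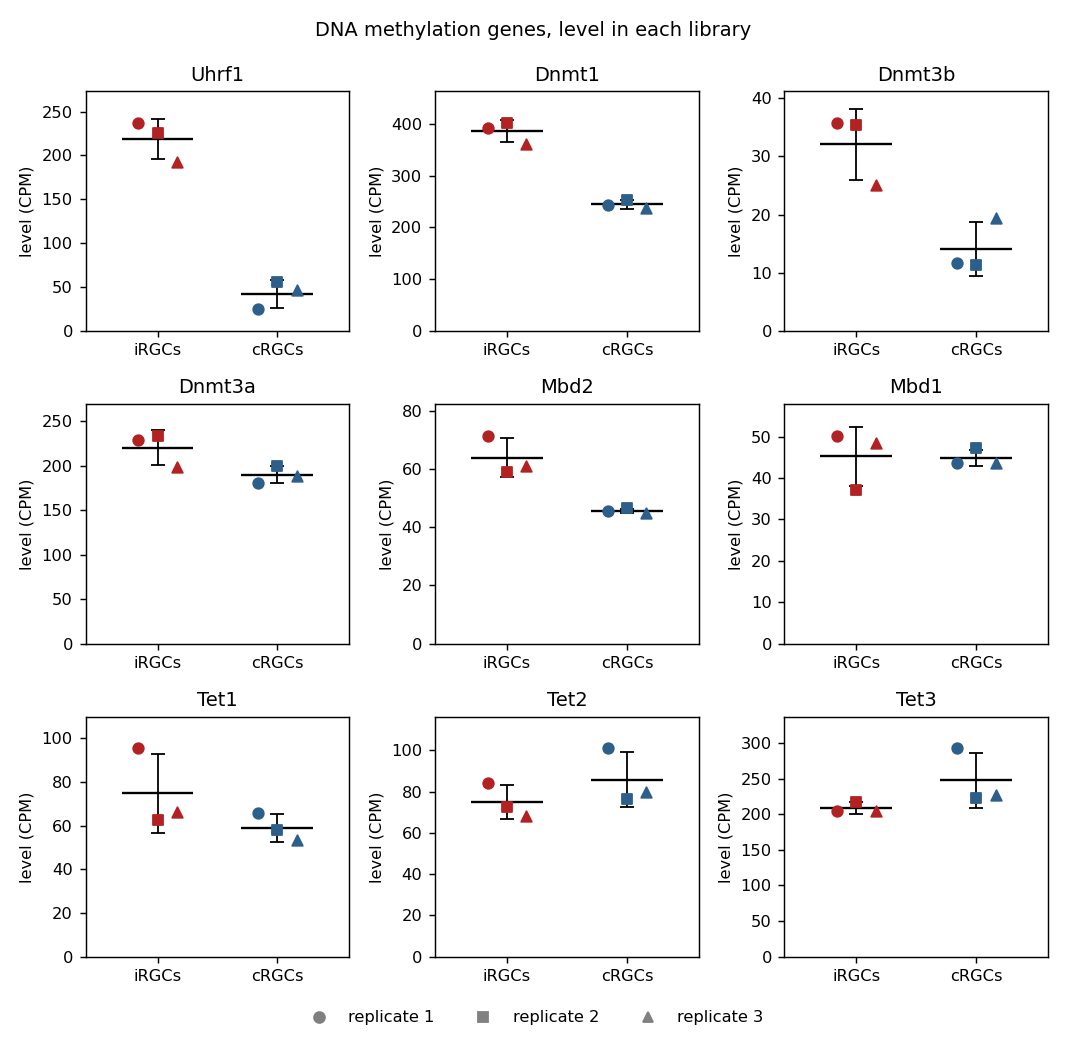
Level of each of the 9 genes in CPM (y axis, starting at 0) in the 3 iRGC libraries (red) and the 3 cRGC libraries (blue), with the replicate number as the symbol, the mean as a horizontal line and the SD as the error bar. All iRGC libraries lie above all cRGC libraries for Uhrf1, Dnmt1, Dnmt3b and Mbd2, and below them for Tet3, whose difference did not pass the test.

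Uhrf1 showed the largest difference of the 9. It lies on the plus strand of chr17:56303321-56323486 (GRCm38) and had 237, 226 and 193 CPM in iRGC replicates 1, 2 and 3, against 24.5, 55.4 and 46.2 CPM in the cRGC replicates. The lowest iRGC library was thus well above the highest cRGC library, and cRGC replicate 1 was the lowest of all. The fitted difference was 5.20-fold (log2 fold change 2.38 ± 0.27; adjusted p = 2.84e-04, edgeR). It was 2.31 without iRGC replicate 1 (adjusted p = 0.0012, edgeR). Dnmt1, on the minus strand of chr9:20907209-20959888, had the highest level of the 9 genes in CPM in iRGCs. It had 392, 402 and 361 CPM in iRGCs and 242, 253 and 237 CPM in cRGCs, with little spread inside either population and no overlap between them. The difference was 1.58-fold (log2 fold change 0.66 ± 0.10; adjusted p = 8.22e-04, edgeR), and the log2 fold change was 0.64 without iRGC replicate 1 (adjusted p = 0.0027, edgeR). Both partners of maintenance methylation were therefore higher in iRGCs, Uhrf1 by a larger factor than Dnmt1.

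Promoter sequence was read for the 9 genes because many S phase genes are known targets of E2F factors. RefSeq promoters (GRCm38.p6) were searched over the 250 bases before each start site, on both strands, for the E2F-type words TTTCCCGC, TTTGGCGC and TTTCGCGC, which do not contain one another. The promoters available held 12 windows for 7 of the 9 genes and none for Mbd1 or Mbd2. TTTCGCGC was found in 1 of 3 Dnmt1 windows and in 1 of 2 Uhrf1 windows. None of the words was in the windows of the other 5 genes, Dnmt3b among them. Over all 32851 windows of that length, 0.256% held TTTCGCGC, 0.895% TTTCCCGC and 0.417% TTTGGCGC, and 1.53% held any of them. TTTCGCGC itself contains CG dinucleotides, and the matched windows were rich in them, with 26 for Dnmt1 and 30 for Uhrf1 against a median of 6 over all windows. Among the 3150 windows with at least 26 CG dinucleotides, a minimum chosen after the matches were seen, 24 windows (0.762%) held TTTCGCGC. The 30 bases around each match are shown 5′ to 3′ on the strand of the gene, with the match in capitals, from chr9:20952824-20952853 on the minus strand for Dnmt1 and from chr17:56304117-56304146 on the plus strand for Uhrf1.
Dnmt1: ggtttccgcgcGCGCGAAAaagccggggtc
Uhrf1: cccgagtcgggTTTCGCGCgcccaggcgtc
In Uhrf1 the word stands in the direction of transcription, 185 to 178 bases before the annotated start, and in an intron of the transcript Uhrf1-201, which starts further upstream. In Dnmt1 it stands on the opposite strand as GCGCGAAA, 219 to 212 bases before the start of that window and inside the 5′ untranslated part of the first exon of Dnmt1-201. These are matches of letters only, and no binding was measured in these libraries. A part of E2F factors in the differences of these genes was not tested.

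Dnmt3b, the de novo methyltransferase of early embryonic cells, was low in both populations. Located on the plus strand of chr2:153649450-153687730, it had 35.8, 35.3 and 25.1 CPM in iRGCs and 11.6, 11.2 and 19.4 CPM in cRGCs. The third replicate was the lowest of the iRGCs and the third the highest of the cRGCs, and the populations still did not overlap. The difference was 2.27-fold (log2 fold change 1.19 ± 0.26; adjusted p = 0.00609, edgeR) and 1.10 on the log2 scale without iRGC replicate 1 (adjusted p = 0.021, edgeR). Dnmt3a, the de novo methyltransferase known for its part in postmitotic neurons, lies on the plus strand of chr12:3806007-3914443. It had 229, 234 and 198 CPM in iRGCs and 181, 200.04 and 189 CPM in cRGCs, and iRGC replicate 3 fell below cRGC replicate 2. The log2 fold change of Dnmt3a was 0.22 ± 0.11 and did not pass the test (adjusted p = 0.144, edgeR), but it passed without iRGC replicate 3 (0.28, adjusted p = 0.051, edgeR). Without iRGC replicate 1 it was 0.18 (adjusted p = 0.258, edgeR). An antisense gene, Dnmt3aos, shares 0.799% of the exonic bases of Dnmt3a, and reads of the 2 cannot be told apart there because the strand setting of the counting is not given in the sources used here.

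None of the Tet genes passed the test. Tet3, the most abundant of them, lies on the minus strand of chr6:83362373-83459084 and had 204, 218 and 204 CPM in iRGCs against 292, 222 and 227 CPM in cRGCs. Every cRGC library was above every iRGC library, by a small margin except for cRGC replicate 1, and the log2 fold change was -0.25 ± 0.13 (adjusted p = 0.159, edgeR). It was -0.23 without iRGC replicate 1 and -0.12 without cRGC replicate 1. Tet1, on the minus strand of chr10:62804570-62908996, had 95.3, 62.5 and 66.4 CPM in iRGCs and 65.8, 57.8 and 53.3 CPM in cRGCs. Its groups overlapped, and iRGC replicate 1 stood apart from the other iRGC libraries. The log2 fold change of Tet1 was 0.34 ± 0.18 (adjusted p = 0.163, edgeR). It fell to 0.13 without iRGC replicate 1 (adjusted p = 0.509, edgeR) and was called when iRGC replicate 2 was left out (0.45, adjusted p = 0.0998, edgeR), so single libraries decided its size and its call. Tet2, on the minus strand of chr3:133463679-133545139, had 84.2, 72.7 and 68.0 CPM in iRGCs and 101, 76.6 and 79.7 CPM in cRGCs. The highest iRGC library lay above 2 of the cRGC libraries, and the log2 fold change was -0.19 ± 0.14 (adjusted p = 0.328, edgeR). For Tet2 it was -0.29 without iRGC replicate 1 and -0.065 without cRGC replicate 1.

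Of the 2 readers, Mbd2 was higher in iRGCs and Mbd1 did not pass the test. Mbd2, on the plus strand of chr18:70568189-70626131, had 71.5, 59.0 and 61.2 CPM in iRGCs and 45.5, 46.5 and 45.0 CPM in cRGCs. The cRGC libraries lay within 2 CPM of each other and all iRGC libraries above them. Mbd2 was 1.40-fold higher in iRGCs (log2 fold change 0.48 ± 0.12; adjusted p = 0.0121, edgeR), with a log2 fold change of 0.39 without iRGC replicate 1 (adjusted p = 0.031, edgeR). Mbd1, on the plus strand of chr18:74267605-74282732, had 50.2, 37.1 and 48.4 CPM in iRGCs and 43.6, 47.2 and 43.7 CPM in cRGCs. Its iRGC libraries spread on both sides of the cRGC libraries, and the log2 fold change was 0.013 ± 0.15 (adjusted p = 0.955, edgeR). The sign of this value turned without iRGC replicate 1 (-0.068), without iRGC replicate 3 (-0.047) and without cRGC replicate 1 (-0.014), and no direction is given for Mbd1.

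Levels of different genes were compared per length, as CPM per kilobase of the merged exons of the gene. In iRGCs the order was Dnmt1 (52.2 ± 2.88, SD, n = 3), Uhrf1 (51.4 ± 5.41), Mbd2 (19.9 ± 2.09), Dnmt3a (13.3 ± 1.17), Tet3 (12.5 ± 0.47), Mbd1 (6.75 ± 1.06), Dnmt3b (6.28 ± 1.19), Tet1 (4.84 ± 1.16) and Tet2 (4.44 ± 0.50). Neighbours whose ranges of 1 SD overlapped were Dnmt1 and Uhrf1, Dnmt3a and Tet3, and the run of Mbd1, Dnmt3b, Tet1 and Tet2. In cRGCs the order was Dnmt1 (33.1 ± 1.11), Tet3 (14.8 ± 2.34), Mbd2 (14.2 ± 0.23), Dnmt3a (11.4 ± 0.57), Uhrf1 (9.87 ± 3.73), Mbd1 (6.69 ± 0.30), Tet2 (5.08 ± 0.79), Tet1 (3.82 ± 0.41) and Dnmt3b (2.76 ± 0.91). Here the overlaps were between Tet3 and Mbd2, between Dnmt3a, Uhrf1 and Mbd1 as neighbours, and between Tet1 and Dnmt3b. The order depends in part on the length used. Per kilobase of the longest transcript, Tet2 (8.17) stood above Dnmt3b (7.43) and Tet1 (5.20) in iRGCs, and Mbd2 (23.4) above Tet3 (22.7) in cRGCs. Uhrf1 stood beside Dnmt1 at the top of the order in iRGCs and in its middle in cRGCs, whereas Dnmt1 led in both.

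Shares within a library do not depend on its scaling, so the balance inside each family was computed from counts per kilobase. Exact permutation tests over 3 libraries against 3 cannot go below p = 0.1, and 8 such quantities were tested. Dnmt3a made up 18.6%, 18.6% and 18.1% of the Dnmt sum in iRGC replicates 1, 2 and 3 and 23.7%, 24.8% and 24.0% in the cRGC replicates. The de novo enzyme of neurons thus held a smaller share in every iRGC library, by 5.68 percentage points on average (difference -5.68, and -5.77 without iRGC replicate 1; exact permutation p = 0.1, two-sided, adjusted p = 0.133). The remainder was taken by Dnmt1, at 72.8% ± 1.39 in iRGCs and 70.0% ± 1.81 in cRGCs (SD, n = 3; exact permutation p = 0.1, two-sided, adjusted p = 0.133; difference 2.82 percentage points, and 1.79 without cRGC replicate 3), and by Dnmt3b, at 8.70% ± 1.09 and 5.84% ± 1.92, where the libraries overlapped (exact permutation p = 0.2, two-sided, adjusted p = 0.2). With counts not divided by length, the difference in the Dnmt1 share was 5.97 percentage points. Among the Tet genes, Tet3 held 57.6% ± 4.63 of the sum in iRGCs and 62.4% ± 0.723 in cRGCs, and Tet1 held 22.1% ± 3.86 and 16.2% ± 1.03 (both exact permutation p = 0.1, two-sided, adjusted p = 0.133). These Tet differences of -4.85 and 5.90 percentage points shrank to -2.21 and 3.75 without iRGC replicate 1, where Tet1 was highest. Tet2 held 20.4% ± 0.880 in iRGCs and 21.4% ± 0.349 in cRGCs, with overlap (exact permutation p = 0.2, two-sided, adjusted p = 0.2).

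Of the 8 quantities, the ratio of Uhrf1 to Dnmt1 differed by the most percentage points. Per kilobase, the level of Uhrf1 was 105%, 97.3% and 92.5% of that of Dnmt1 in iRGC replicates 1, 2 and 3, and 17.5%, 37.9% and 33.7% in the cRGC replicates. By this measure Uhrf1 and Dnmt1 were near parity in each iRGC library, and Dnmt1 exceeded Uhrf1 in each cRGC library (difference in means 68.4 percentage points, and 65.1 without iRGC replicate 1; exact permutation p = 0.1, two-sided, adjusted p = 0.133). The parity depends on dividing by length, since Uhrf1 had fewer counts than Dnmt1 in every iRGC library. With counts not divided by length, the difference was 39.5 percentage points. Mbd1 reached 33.7%, 30.2% and 37.9% of the level of Mbd2 in iRGCs and 45.9%, 48.6% and 46.5% in cRGCs. That ratio was lower in every iRGC library (difference -13.1 percentage points, and -13.0 without iRGC replicate 1; exact permutation p = 0.1, two-sided, adjusted p = 0.133). It differed by -27.3 percentage points with counts not divided by length.

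**Figure D2:**
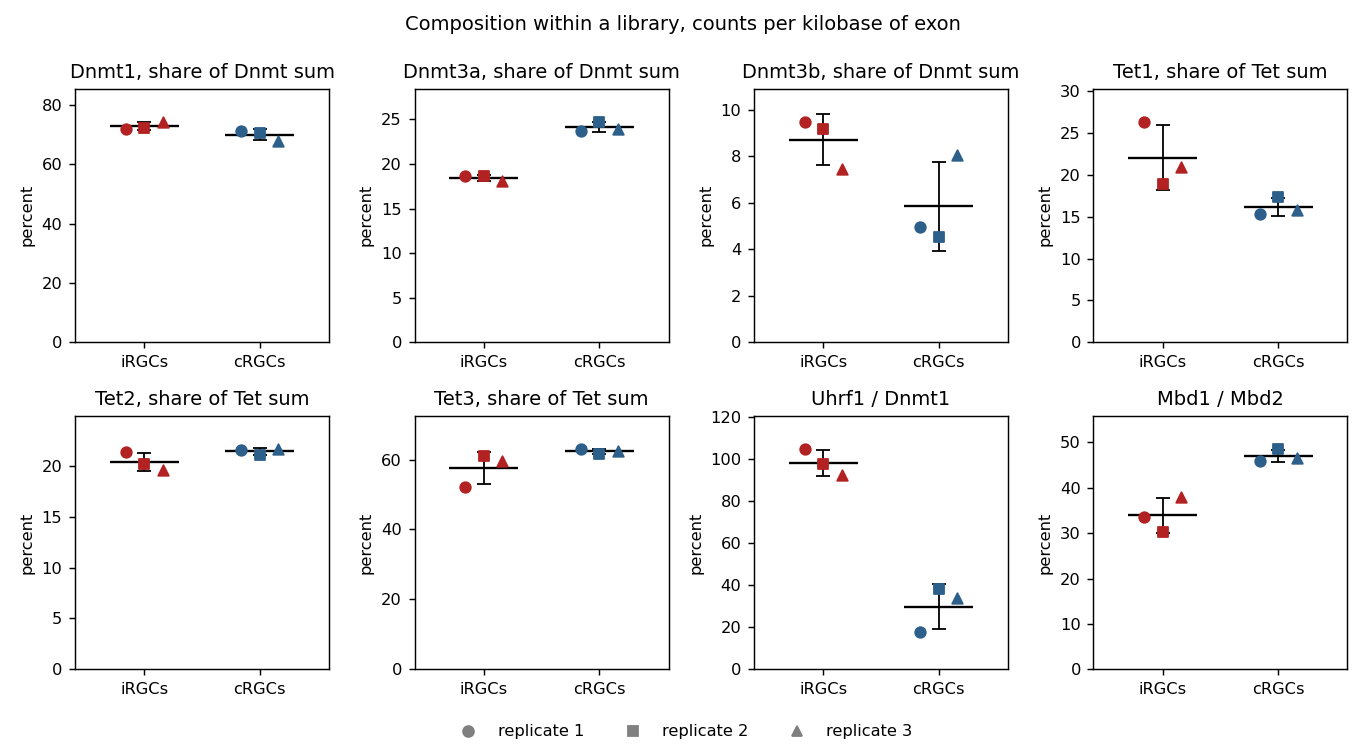
Percent of the family sum held by each Dnmt and each Tet gene, and the ratios Uhrf1 / Dnmt1 and Mbd1 / Mbd2 in percent (y axes, from 0), from counts per kilobase of exon in each iRGC library (red) and cRGC library (blue), with mean line and SD bar. The Uhrf1 ratio lies between 92.5% and 105% in iRGCs and between 17.5% and 37.9% in cRGCs, and the Dnmt3a share is lower in all 3 iRGC libraries.

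The levels were then set beside those of the S phase list, whose geometric mean was 111, 101 and 103 CPM in iRGCs and 16.9, 31.6 and 24.1 CPM in cRGCs, a difference of 2.16 on the log2 scale. The log2 level of each of the 9 genes minus the mean log2 level of that list in the same library was taken as a description. A gene with equal levels in both populations comes out lower in iRGCs by the 2.16 of the list on this measure, so no test is given. For Uhrf1 this relative level was 1.10, 1.17 and 0.91 in iRGCs and 0.57, 0.82 and 0.96 in cRGCs, and the groups overlapped. Its difference was 0.28 (0.26 without iRGC replicate 1 and 0.17 without cRGC replicate 1), and it was -0.079 relative to the list of G2 and M phases, so its sign depends on the list. The relative level of Dnmt1 was 1.83, 2.00 and 1.82 in iRGCs and 3.85, 3.01 and 3.30 in cRGCs, a difference of -1.51 (-1.48 without iRGC replicate 1). For Dnmt3b the difference was -0.98, and for Mbd2 it was -1.69. The difference lay between -1.84 and -2.40 for Tet1, Dnmt3a, Mbd1, Tet2 and Tet3, around the value of a gene with equal levels. Among the cRGC libraries, replicate 1 had the lowest S phase level and the lowest Uhrf1 level, and replicate 2 the highest of both. The orders differed among the iRGC libraries. Replicate 1 was the highest of both, but the S phase level was lowest in replicate 2 and Uhrf1 in replicate 3.

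**Figure D3:**
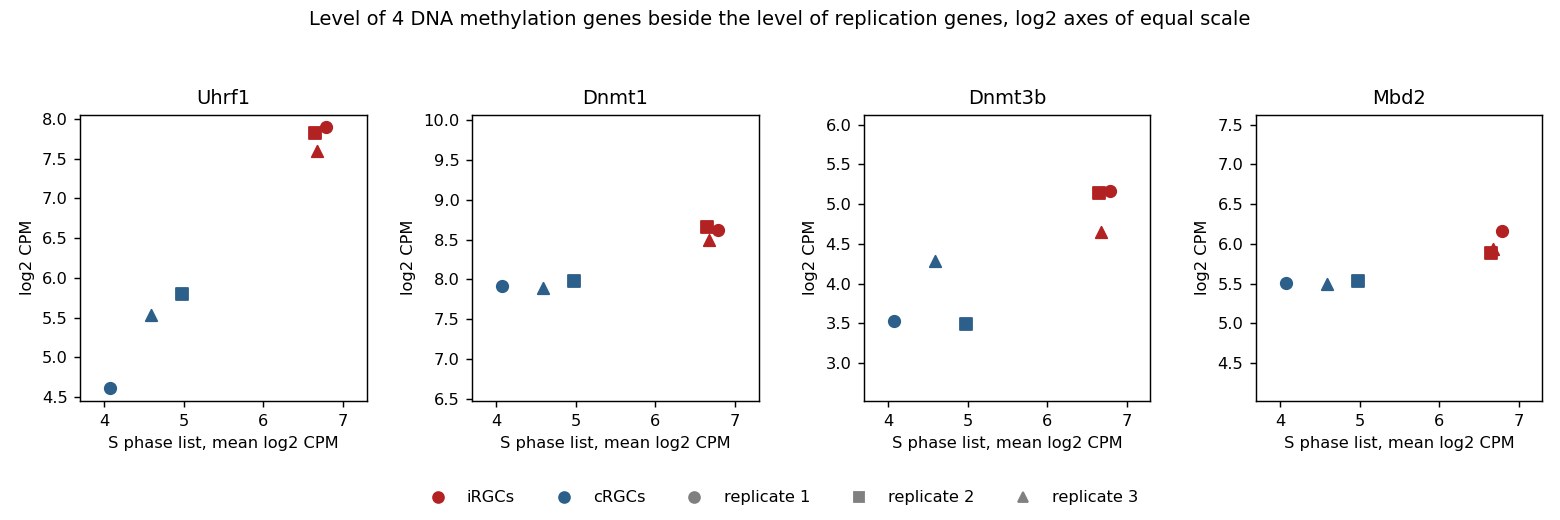
Log2 CPM of Uhrf1, Dnmt1, Dnmt3b and Mbd2 (y axis) against the mean log2 CPM of the S phase list (x axis, pseudocount of 0.5 CPM) in the 3 iRGC libraries (red) and 3 cRGC libraries (blue), with axes of equal scale and replicate numbers as symbols. Uhrf1 spans about the same range as the S phase list between the populations, whereas Dnmt1 and Mbd2 span a smaller one.

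Partners of the 9 genes were counted over lists of the pathway. Of 99 genes matched in 7 lists, 79 were tested, among which iRGCs had 35 at a higher level (44.3%) and 13 at a lower one (16.46%), beside 23.3% and 23.1% of all tested genes. Without iRGC replicate 1 the counts were 34 and 12. The median log2 fold change over the tested pathway genes was 0.22.

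Of 14 writer partners, 11 were tested, 5 were higher and 1 lower in iRGCs, with the remodeller Hells and its partners ahead. Hells, which is needed for methylation of repeats, had 146, 130.4 and 113 CPM in iRGCs and 17.0, 36.4 and 27.7 CPM in cRGCs. Cdca7, the subunit that brings Hells to nucleosomes, had 95.8, 87.2 and 84.9 CPM in iRGCs against 8.18, 24.9 and 15.8 CPM in cRGCs. The remodeller and its partner were thus higher in every iRGC library, with log2 fold changes of 2.26 ± 0.25 for Hells (adjusted p = 2.84e-04, edgeR) and 2.45 ± 0.33 for Cdca7 (adjusted p = 6.15e-04, edgeR). Their relative Cdca7l had a log2 fold change of 2.53, with 22.4% of its exonic bases shared with the genes Dnah11 and Gm20613. Uhrf2, the paralogue of Uhrf1, differed far less, with 190.1, 175 and 181 CPM in iRGCs and 148, 144 and 152 CPM in cRGCs (log2 fold change 0.30 ± 0.09; adjusted p = 0.0334, edgeR, and 0.103 without cRGC replicate 2). Trim28, a corepressor that works with KRAB zinc finger proteins, had a log2 fold change of 0.48. Zfp57, a KRAB zinc finger protein that protects methylation at imprinted regions, was the gene that was lower, at 68.9, 94.9 and 91.6 CPM in iRGCs and 258, 223 and 218 CPM in cRGCs (log2 fold change -1.45 ± 0.15; adjusted p = 2.25e-04, edgeR). Usp7, Setdb1, Ehmt1, Ehmt2 and Trdmt1 did not pass the test. The germline and oocyte factors Dnmt3l and Dppa3 had no count in any library, which allows up to 0.0926 to 0.115 CPM, depending on the library (3 counts, counting error only), and Dnmt3c was below 1 CPM in every library.

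Of 12 tested genes of the methyl donor cycle, 7 were higher, with a median log2 fold change of 0.54. The folate enzymes Shmt2, at 207, 167 and 213 CPM in iRGCs and 37.0, 60.9 and 41.8 CPM in cRGCs, and Shmt1 had log2 fold changes of 2.07 ± 0.20 and 2.56 ± 0.29 (adjusted p = 2.09e-04 and 2.87e-04, edgeR). Mthfd1 differed by 1.84, Ahcy, which removes the inhibitor S-adenosylhomocysteine, by 1.19, and the methionine synthase Mtr by 0.88 on the log2 scale. The call of Ahcy was lost without cRGC replicate 3 (1.13, adjusted p = 0.107, edgeR). Mat2a, which encodes the catalytic subunit of S-adenosylmethionine synthesis outside the liver, had 243, 235 and 194 CPM in iRGCs and 206, 229 and 220 CPM in cRGCs and did not pass the test (log2 fold change 0.041 ± 0.12; adjusted p = 0.82, edgeR), with the sign turned without iRGC replicate 1 (-0.024) or cRGC replicate 1 (-0.0050). Its regulatory subunit Mat2b was higher (0.59).

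Of 17 tested genes of base excision and deamination, 11 were higher and 1 lower in iRGCs, with a median log2 fold change of 1.18. The glycosylases Tdg, Smug1, Neil1 and Neil2, which can act on oxidised bases, were not called, whereas the related glycosylase Neil3 was higher. Ung, a uracil DNA glycosylase that acts during replication, had 43.8, 40.4 and 37.4 CPM in iRGCs and 4.07, 9.17 and 6.58 CPM in cRGCs (log2 fold change 2.61 ± 0.28; adjusted p = 2.58e-04, edgeR). Neil3, Lig1, Xrcc1 and Parp1, which also serve repair or replication in dividing cells, were higher by 2.31, 1.39, 0.86 and 0.73 on the log2 scale. Tdg, the best known glycosylase of the oxidised bases made by Tet enzymes, had 18.8, 23.5 and 15.5 CPM in iRGCs and 13.8, 14.1 and 13.9 CPM in cRGCs and missed the threshold (log2 fold change 0.47 ± 0.20; adjusted p = 0.105, edgeR), which it passed without iRGC replicate 3 (0.59, adjusted p = 0.055, edgeR), while it was 0.30 without iRGC replicate 2 (adjusted p = 0.316, edgeR). Mbd4, a methyl-CpG binding glycosylase of mismatches, was higher by 1.33 ± 0.24 (adjusted p = 0.00258, edgeR). Gadd45a, a growth arrest gene also used here among the neurogenic precursor markers, had 164, 182 and 146 CPM in iRGCs and 38.6, 53.8 and 64.2 CPM in cRGCs (log2 fold change 1.65 ± 0.19; adjusted p = 2.88e-04, edgeR), with 19.1% of its exonic bases shared with another gene. Polb, the polymerase of short-patch repair, was lower (-0.75 ± 0.17; adjusted p = 0.00784, edgeR).

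Tet cofactors moved in both directions, with 4 of 12 higher, 4 lower and a median log2 fold change of -0.15. Idh1, the cytosolic source of the Tet cosubstrate 2-oxoglutarate, had 186, 263 and 305 CPM in iRGCs and 504, 508 and 580.2 CPM in cRGCs (log2 fold change -1.08 ± 0.17; adjusted p = 0.00132, edgeR), whereas the mitochondrial Idh2 was higher (0.35 ± 0.11; adjusted p = 0.0317, edgeR, and 0.105 without iRGC replicate 2). Cxxc4, a CG-binding protein known to act on Tet2, had 62.8, 71.4 and 83.5 CPM in iRGCs and 181, 176 and 149 CPM in cRGCs (log2 fold change -1.22 ± 0.14; adjusted p = 2.88e-04, edgeR). Of the other readers, 11 were tested and 3 were higher (27.3%, beside 23.3% of all tested genes), with a median log2 fold change of -0.23. Zbtb4, a zinc finger protein that binds methylated CG sites, was lower (-0.80), and Wdr76 was higher (1.97). Mbd5 (-0.32), Hmces (0.57) and Mbd3 (0.25), which like Mbd2 is a subunit of NuRD, passed with all libraries but lost the call when single libraries were left out, Mbd5 without iRGC replicate 1 or 2 or cRGC replicate 1 or 2 (adjusted p = 0.127 to 0.223, edgeR), Hmces without iRGC replicate 2 or 3 or cRGC replicate 1 or 2 (adjusted p = 0.100 to 0.131, edgeR) and Mbd3 without any library but iRGC replicate 2 (adjusted p = 0.148 to 0.270, edgeR).

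Of the other 13 NuRD subunits, 5 were higher and 3 lower. The histone deacetylase Hdac1 had 35.7, 41.2 and 35.7 CPM in iRGCs and 19.3, 18.8 and 21.6 CPM in cRGCs (log2 fold change 0.92 ± 0.15; adjusted p = 0.00143, edgeR), and the histone binding subunits Rbbp7 and Rbbp4 were higher by 0.89 and 0.65, the latter with 18.0% of its exonic bases shared. Among the alternative ATPases of the complex, Chd4 had 1026, 1065 and 1009.6 CPM in iRGCs against 1150.1, 1033 and 1187 CPM in cRGCs and did not pass the test (-0.12 ± 0.10; adjusted p = 0.377, edgeR). Chd3 was lower (-0.90 ± 0.13; adjusted p = 9.29e-04, edgeR), as was Chd5, a neuronal ATPase, with 22.4, 20.6 and 52.1 CPM in iRGCs and 198, 172 and 74.1 CPM in cRGCs (-2.23 ± 0.44; adjusted p = 0.00367, edgeR).

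**Figure D4:**
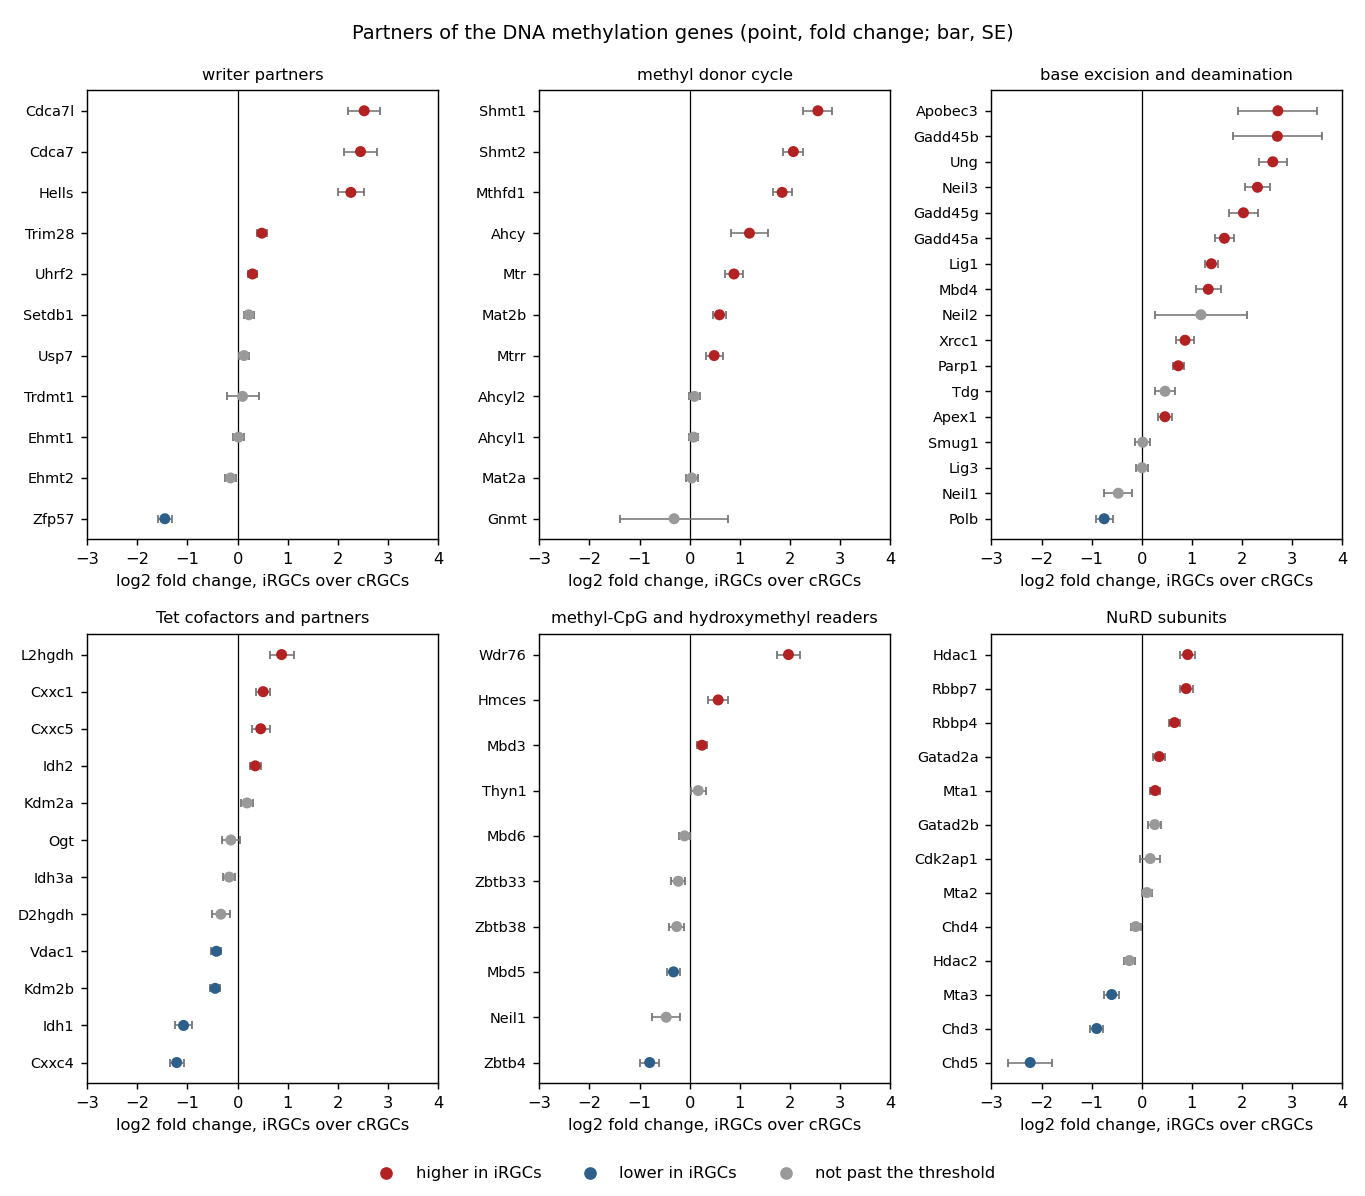
Log2 fold change of iRGCs over cRGCs (x axis; point, edgeR estimate; bar, SE; 3 libraries per population) for tested genes of 6 pathway lists, without those not reported here, coloured by whether the gene was higher, lower or not past an adjusted p of 0.1. Counted over all tested genes, drawn or not, 11 of 17 in the list of base excision and deamination were higher. Among the Tet cofactors 4 were higher and 4 lower.

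Germline genes known to be kept silent by promoter methylation in somatic cells were read as a last list. Of 15 such genes, 11 were below 1 CPM in every library, and 4 of these, Sycp1, Asz1, Taf7l and Hormad1, had no count at all. None of the 4 that were tested was called in either direction by edgeR. The highest was Brdt, at 9.25, 7.90 and 9.76 CPM in iRGCs and 7.72, 7.14 and 11.1 CPM in cRGCs, with overlapping groups. Dazl was highest in iRGC replicate 2, at 2.69 CPM.

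For each of the 9 genes, the genes with the most similar pattern over the 6 libraries were taken, by the root mean square difference of log2 CPM after centring, among 10279 genes with a mean of at least 10 CPM. Uhrf1 was nearest to Cdk1 (difference 0.058), the kinase of entry into mitosis, then to 2700099C18Rik (0.071) and the centromere gene Cenpn (0.074). Dnmt1 was nearest to Lman2 (0.021), Gnl3 (0.041) and Hnrnpm (0.044). None of these neighbours of Uhrf1 or Dnmt1 is on the S phase list, while Cdk1 is on the list of G2 and M phases. Dnmt3b was nearest to Crabp2 (0.039), followed at a distance by Kcnab1 (0.12) and Rps27l (0.13). The nearest gene was Anapc1 for Dnmt3a, Rlim for Tet1, Sec24a for Tet2, Gpatch8 for Tet3, Fam126b for Mbd1 and Arf6 for Mbd2, at differences from 0.025 to 0.044.

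Vascular markers also differed among the libraries. The endothelial list summed to 461, 642 and 433 CPM in iRGCs against 86.2, 107 and 70.1 CPM in cRGCs, with all 5 tested genes higher in iRGCs. Kdr, which retinal progenitors also express, was its most abundant gene and gave 366, 320.1 and 418 CPM of the iRGC sums. The other 8 genes summed to 95.8, 322 and 15.7 CPM in iRGCs and to 2.65, 4.62 and 2.55 CPM in cRGCs. The defining marker Cdh5 had 15.2, 81.2 and 0.157 CPM in iRGCs and 0 in all cRGC libraries, so that iRGC replicate 2 was the highest and iRGC replicate 3 near 0. Uhrf1, Dnmt1, Dnmt3b and Mbd2 were higher in iRGC replicate 3, where Cdh5 was near 0, than in any cRGC library. Within the iRGCs, replicate 3 was the lowest library for Uhrf1, Dnmt1 and Dnmt3b, but not for Mbd2. Without iRGC replicate 2, the log2 fold changes of Uhrf1, Dnmt1, Dnmt3b and Mbd2 were 2.35, 0.63, 1.11 and 0.54, all with an adjusted p under 0.1 (edgeR). That fit kept iRGC replicate 1, where Cdh5 stood at 15.2 CPM. Among lists of other cell types, 8 of 10 neurogenic precursor, 5 of 5 photoreceptor precursor, 5 of 8 amacrine and horizontal, 4 of 6 microglial, 4 of 4 erythroid, 2 of 3 mural and 1 of 3 fibroblast markers tested were higher in iRGCs, 2 neurogenic markers and the 1 tested astrocyte marker were lower, and no pigment epithelium or lens marker was called by edgeR. The part of these markers in the differences of the methylation genes was not tested.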

How the data were processed

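The 6 RNA-seq libraries of a series of 19 samples were used, and the 13 ATAC-seq samples were not analysed here. The authors aligned 50-base reads to mm10 with HISAT2 2.1.0, counted them on Ensembl GRCm38 release 89 genes with HTSeq 0.11.1 and deposited raw counts per gene. Reads overlapping no gene, 12.3% to 23.2% of uniquely aligned ones, stayed out of library sizes. Symbols and exons came from GENCODE M21 (GRCm38), promoters from RefSeq.

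Tests on counts used edgeR 4.0.16 in R 4.3.3 (filterByExpr, TMM factors of 0.921 to 1.10, quasi-likelihood test, no block), a script tested on simulated data first. The SE of a fold change was derived from its F value. The biological coefficient of variation was 36.3%. Shares were compared with exact permutation tests (scipy 1.17.1). Alternatives used DESeq2 1.42.0 and limma 3.58.1.

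The 9 genes and all lists were chosen with earlier results of these data known. Named were the 9 genes, pathway genes by an adjusted p under 0.1 or for their known role, the 3 nearest patterns per gene and markers. Genes that missed the test and the order of lists were picked after their values were seen. A few genes of the lists are counted but not reported here.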

Additional observations from a re-analysis of the deposited data

How the results depend on the processing

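The counts of DEGs (3339 to 4104 over 14 alternatives), of methylation genes called higher (4 to 5) and lower (0), and of pathway genes called higher (29 to 36) and lower (11 to 15) stayed within 1.5 times their values. Uhrf1, Dnmt1, Dnmt3b and Mbd2 stayed higher under all 14, Mbd2 with a highest adjusted p of 0.0528. Without iRGC replicate 3 Dnmt3a passed the threshold (log2 fold change 0.28), and without iRGC replicate 2 Tet1 did (0.45). The log2 fold change of Mbd1 turned sign with limma voom (-0.00042) and without iRGC replicate 1 (-0.068), iRGC replicate 3 (-0.047) or cRGC replicate 1 (-0.014), over a range of -0.068 to 0.14. That of Slc6a4 turned sign with limma voom (-0.86), with the replicate block (-0.54) and without iRGC replicate 3 (-1.11, against 0.98 without iRGC replicate 1), and that of Mat2a without iRGC replicate 1 (-0.024) or cRGC replicate 1 (-0.0050); the causes were not tested. Leaving out a library gave log2 fold changes from 0.17 to 0.28 for Dnmt3a, from 0.13 to 0.45 for Tet1, from -0.29 to -0.065 for Tet2 and from -0.30 to -0.12 for Tet3, the last 2 nearest to 0 without cRGC replicate 1.

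With counts not divided by length, the differences were 5.97 percentage points for the share of Dnmt1, -7.82 for Dnmt3a, 39.5 for the ratio of Uhrf1 to Dnmt1 and -27.3 for that of Mbd1 to Mbd2, which changes by construction with gene length, and the Dnmt3a share differed by -6.67 per kilobase of the longest transcript. Relative to G2 and M phase genes instead of S phase genes, the difference turned sign for Uhrf1 (-0.079) and was -1.86 for Dnmt1, -2.31 for Dnmt3a, -2.52 for Mbd1 and -2.04 for Mbd2.

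Same-numbered replicates did not deviate together over the tested genes (correlations of -0.0142, -0.0446 and -0.0669). A shared batch that moved few genes would leave such values near 0, so they cannot decide whether these replicates were processed together. With the replicate block, the log2 fold changes were 2.44 for Uhrf1, 0.66 for Dnmt1, 1.22 for Dnmt3b and 0.48 for Mbd2, 3447 DEGs were called, and no call among the 9 genes changed, while Mbd3 and Mbd5 lost theirs (adjusted p of 0.15 and 0.156, edgeR). Each of the 9 genes had at least 302 counts in every library.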
